A study of Homo sapiens with 18 samples.

Results

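Replication-dependent histone genes were followed through RNA sequencing of 3 human breast epithelial lines. The members were all rows of the deposited table whose Ensembl identifier maps to H1-1 to H1-5 or to an H2AC, H2BC, H3C or H4C symbol ending in digits, and the rule used no measured value. It matched 68 symbols, of which 60 had values among the 35933 genes with values: 5 H1, 16 H2A, 16 H2B, 12 H3 and 11 H4 genes. H2AC1, H2BC1, H2BC10, H3C11, H4C6, H4C7, H4C11 and H4C13 were not analysed here. The 18 libraries form 6 groups of 3 replicates, named a, b and c. In each of the lines MCF10A, MCF10AT1 and MCF10CA1h, 1 group is a negative control and 1 is labelled METTL3 knockdown. MCF10A is an immortalized, non-tumorigenic line, MCF10AT1 carries a mutated HRas in that background, and MCF10CA1h was recovered from MCF10AT1 after passage as mouse xenografts. All 6 groups received a Cas9 and mCherry plasmid in 2 rounds, with a control guide in the negative controls and a guide to exon 1 of METTL3, the catalytic subunit of the m6A methyltransferase, in the knockdowns. Each group was grown from a single sorted cell, so clone and guide cannot be told apart, and the spread between replicates is the spread within 1 clone.

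Replication-dependent histone genes encode the bulk of the core histones H2A, H2B, H3 and H4 and of the linker histone H1, and they are transcribed mainly in S phase, when new DNA has to be packaged. They lie in clusters, usually lack introns, and their mRNAs normally end after a conserved stem-loop instead of a polyA tail. Stem-loop binding protein, SLBP, holds that loop through processing, export and translation, and U7 snRNA with the cleavage factor CPSF3 makes the cut. Some members also give polyadenylated transcripts that end further downstream, in particular in differentiating or non-dividing cells. The replacement histones, such as H3-3B and H2AZ1, are polyadenylated and are made throughout the cell cycle.

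The normalized counts of a library summed to between 21347352 and 31681834. METTL3 was tested first as a check of the labels: its mean was 632 in the negative control and 810 in the knockdown of MCF10A (log2 difference 0.33, SE 0.30, adjusted p = 0.618), 930 and 823 in MCF10AT1 (-0.17, SE 0.26, adjusted p = 0.707), and 1135 and 804 in MCF10CA1h (-0.49, SE 0.12, adjusted p = 0.0234). Only the MCF10CA1h libraries labelled knockdown therefore had less METTL3 RNA by the test, and in MCF10A the libraries labelled knockdown had the higher mean. Protein was not analysed here. The study reported less METTL3 protein on Western blots in each line, substantially so in MCF10AT1 and only moderately in MCF10CA1h. Its RT-PCR gave a smaller decrease of the RNA. The RNA values here therefore do not settle the degree of knockdown. The MCF10AT1 libraries labelled knockdown stood apart from the breast epithelial description: 7 of 12 epithelial markers were lower there than in the negative control, with EPCAM at a mean of 107 against 3786, and 4 of 7 tested mesenchymal markers were higher, with FN1 at 85441 against 72.5. Of all 16050 genes tested in that comparison, 5.96% were lower and 7.07% higher. In the other 5 groups the means of CDH1 and KRT5 were at least 3568 and 44293, and that of EPCAM at least 396. Marker differences were not confined to that knockdown. In the MCF10AT1 negative control 7 of 12 epithelial markers were lower and 4 higher than in MCF10A (all genes, 14.7% and 13.3%). In the MCF10CA1h negative control 5 of 8 tested mesenchymal markers were higher than in MCF10A and 0 lower (all genes, 19.0% and 18.8%). Of the other markers, PTPRC, CD3E, CDH5 and VWF had group means of at most 3.50, while CD14 ranged from 62.6 to 2075 and PECAM1 from 43.4 to 517; their part in the histone results was not tested.

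The 3′ stem-loop is shown first because it sets how these RNAs end. For each member it was read from the GENCODE 44 transcript (hg38) that ends closest after the loop. The 16 bases of the stem-loop are in capitals with up to 5 flanking bases on each side.
H1-2: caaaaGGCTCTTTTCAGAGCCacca
H2BC12: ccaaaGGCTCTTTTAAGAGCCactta
H2BC21: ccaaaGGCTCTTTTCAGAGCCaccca
H3C6: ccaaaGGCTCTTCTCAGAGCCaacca
H4C8: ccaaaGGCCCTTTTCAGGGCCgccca
H4C9: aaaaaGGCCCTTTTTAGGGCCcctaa
The form shown for H1-2 and H2BC21 was found in 37 of the 60 members, across H1, H2A, H2B and H3, and the form of H2BC12 in 8, of which 5 are H2B genes. All 11 H4 genes had another stem, with C in place of T and G in place of A: 7 shared the form of H4C8 and 4 that of H4C9. H3C6 was one of 4 members with a form of their own. The stem-loop closed an annotated transcript of 59 of the 60 members (98.33%), against the canonical transcript of 5 of 19633 other protein-coding genes (0.0255%). The exception was H2BC21 (chromosome 1, 149884459 to 149886682, minus strand), whose only annotated transcript, 2224 bases in 1 exon, runs 1729 bases past the loop. Counting every annotated transcript, 17 members had an end other than the stem-loop and 43 had the stem-loop end only.

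Histone RNA was a small part of every library. The 60 genes together summed to between 1558 and 5276 normalized counts, or 0.00627% to 0.0174% of a library, beside 12115 to 89999 for 41 polyadenylated S phase genes and 22370 to 54089 for 12 replacement histones. Sums, shares of sums and mean counts are not scaled to transcript length, here and below. Levels of single genes were therefore also set side by side as the mean normalized count per kilobase of canonical transcript. On that scale the median histone gene stood at 9.72 (range 0.212 to 957), the median S phase gene at 283, the median replacement histone at 907, and the median of 20 polyadenylated housekeeping genes at 18790. Only 5 members exceeded the S phase median and 1, H2BC12, the replacement histone median. RNAs that carry no polyA tail were also low: 38 such RNAs with values had a median of 9.81 per kilobase, and 29 of them had a mean below 10. Among these the signal recognition particle RNAs RN7SL1 and RN7SL2, near-identical to each other, reached 1847 and 1867, RN7SK, which holds back transcription elongation, 206, SNORA73B 190, and RMRP, the RNA of RNase MRP, 119 per kilobase. The sources differ on whether polyA RNA or rRNA-depleted total RNA was sequenced, and these levels are given beside that difference without settling it.

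**Figure D1:**
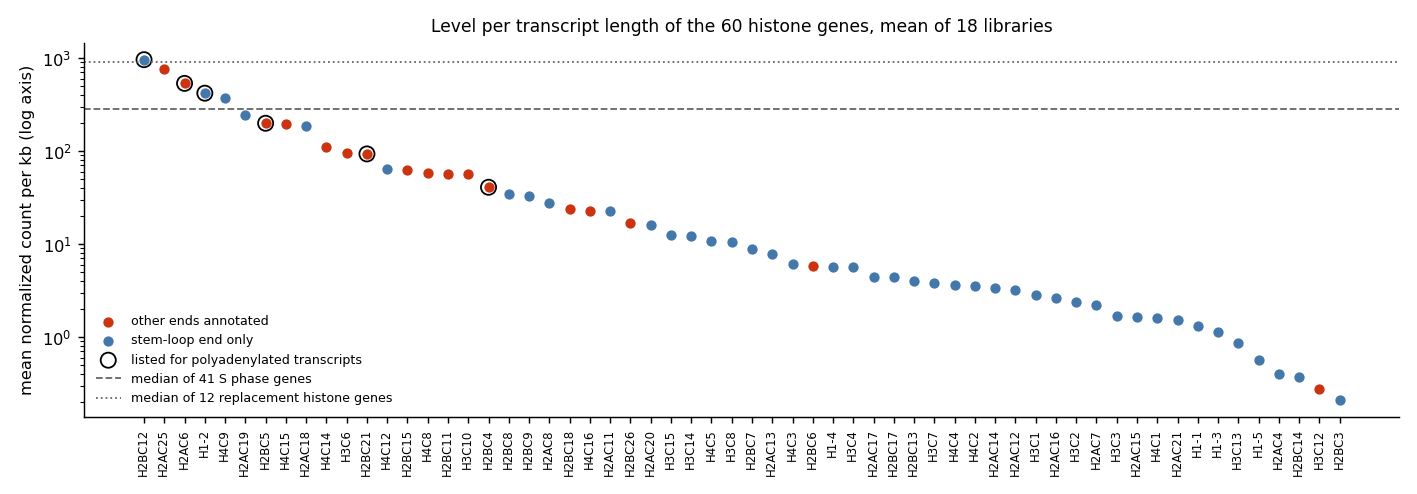
Level of each of the 60 histone genes as the mean normalized count of 18 libraries per kilobase of canonical transcript (log axis), in order of level. Colours separate genes with another annotated end from genes with the stem-loop end only, rings mark the 6 members listed for polyadenylated transcripts, and lines mark the medians of the S phase genes (283) and the replacement histones (907); 5 members lie above the lower line.

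The level differed by annotated end, and a few genes carried most of the signal. Of the 17 members with another annotated end, 13 had a mean of at least 10 normalized counts, and their median level was 57.9 per kilobase; of the 43 with the stem-loop end only, 10 reached that mean and the median was 4.37. A list of 6 members chosen for their known polyadenylated transcripts (H1-2, H2AC6, H2BC4, H2BC5, H2BC12 and H2BC21) held 36.2% to 67.6% of the histone sum of a library and had a median of 308 per kilobase, against 5.90 for the other 54. The first division rests on the annotation, whereas the list was drawn up from background with earlier results of these data known, so its higher level is a description. H1-2 (chromosome 6, 26055740 to 26056470) and H2BC12 (chromosome 6, 27146361 to 27146855) are on that list but have only the stem-loop end in the annotation. The level per kilobase depends on the transcript chosen: with the longest annotated transcript, H2AC25 stood at 238 in place of 754 and H2AC6 at 166 in place of 532.

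At the other extreme, 12 members had a mean below 1 over the 18 libraries, and 14 were above 0 in fewer than 9 libraries. H2BC3 and H2BC14 were each above 0 in 2 libraries, with highest values of 0.97 and 2.21, and H3C12 in 3. A library held between 32 (MCF10AT1 negative control b) and 55 (MCF10CA1h negative control b) members above 0, and 24 members were above 0 in all 18. The 6 highest members made 55.9% to 79.5% of the histone sum.

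Within the linker histones, H1-2 made nearly all of the signal, with a mean of 305 normalized counts and 418 per kilobase, while H1-4 had a mean of 4.45 and H1-1, H1-3 and H1-5 were each below 1. H2A RNA came mainly from H2AC25 (385, 754 per kilobase; chromosome 1, 228434777 to 228457873), H2AC6 (276, 532 per kilobase; chromosome 6, 26124145 to 26139116) and the copies H2AC18 and H2AC19. H2B RNA came from H2BC12, the highest member (474, 957 per kilobase), H2BC21 (206, 92.8 per kilobase) and H2BC5 (96.4, 198 per kilobase; chromosome 6, 26158122 to 26171349). The highest H4 genes were H4C9 (147, 370 per kilobase; chromosome 6, 27139282 to 27139678), H4C15 (76.2) and H4C14 (43.9). H3 genes were the lowest core family with 3.85% of the histone sum, led by H3C6 (46.0; chromosome 6, 26224199 to 26227473), H3C10 (27.5) and the pair H3C14 and H3C15 (6.39 each). H2A and H2B made 36.0% and 35.3% of the sum, H4 12.9% and H1 12%. By place, 46 members on chromosome 6 made 61.9% of the sum, 11 in the first cluster of chromosome 1 made 22.6%, H2AC25 and H2BC26 in the second made 15.1%, and H4C16 on chromosome 12 made 0.362%.

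Several members are near-identical copies, so that reads can be shared out between them in different ways. H3C14 and H3C15 are 99.2% identical over their canonical transcripts and were listed with the same value in every library. H4C14 and H4C15 are identical, and H2AC18 and H2AC19 differ by 1 base. In 3 libraries 1 copy of the latter pair was listed at 0 while the other was not: in MCF10A knockdown b H2AC18 was listed at 0 and H2AC19 at 62.5, in MCF10A knockdown c H2AC18 stood at 87.3 and H2AC19 at 0, and in MCF10AT1 negative control b at 137 and 0. In other libraries both were close, with 454 and 468 in MCF10AT1 knockdown a and 106 and 103 in MCF10AT1 negative control a. The value of 1 copy is therefore uncertain, and a test of the sum of both is given with the calls of these copies.

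Histone H2A and H2B genes often start back to back and share the DNA between their starts. There were 11 such pairs with values for both genes and 193 to 250 bases between the starts. In 4 of them the level per kilobase differed 10-fold or more: H2BC12 stood at 957 and H2AC12 at 3.21 (298-fold), H2AC25 at 754 and H2BC26 at 17.0 (44.4-fold), H2BC15 at 62.3 and H2AC15 at 1.64 (38.0-fold), and H2AC6 at 532 and H2BC4 at 40.7 (13.1-fold). These ratios rest on the canonical lengths. H2BC15 has 542 bases there but 4137 in its longest annotated transcript, and H2AC15 had a mean of only 0.81 normalized counts. In H2BC8 and H2AC8 (34.6 and 27.8) and in H2BC17 and H2AC17 (4.37 and 4.45) both genes stood close together. The DNA between the starts of the first and the last of these unequal pairs is shown because 1 shared region lies before a high and a low gene; it is the plus strand of hg38, chr6:27146856-27147105 and chr6:26123927-26124171, with the first gene of each name to the left on the minus strand. Capitals mark the octamer ATTTGCAT, CCAAT and TATAAA on either strand.
H2BC12 and H2AC12: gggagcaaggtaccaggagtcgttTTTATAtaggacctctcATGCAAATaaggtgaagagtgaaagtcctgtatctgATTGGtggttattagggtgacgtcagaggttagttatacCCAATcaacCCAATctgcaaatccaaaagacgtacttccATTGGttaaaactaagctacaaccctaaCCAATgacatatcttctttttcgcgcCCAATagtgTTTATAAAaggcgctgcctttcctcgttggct
H2BC4 and H2AC6: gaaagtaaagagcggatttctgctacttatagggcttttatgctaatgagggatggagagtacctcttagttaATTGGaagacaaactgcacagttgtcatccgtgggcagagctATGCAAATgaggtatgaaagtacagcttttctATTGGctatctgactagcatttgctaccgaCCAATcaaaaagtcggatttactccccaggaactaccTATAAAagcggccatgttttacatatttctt
The octamer, a binding sequence of the OCT1 factor long known from H2B promoters, was in 8 of the 11 shared regions. In RefSeq promoters (GRCh38.p14, 250 bases before to 50 after a start, 56 of 60 members matched) it was found in 12 of 16 H2B genes, 10 of 15 H2A genes, 1 of 11 H3 genes and no H1 or H4 gene, together 41.1% of members against 2.19% of 27305 genes. CCAAT was found in 85.7% of members against 39.7%, and in 1 of 9 H4 genes. TATAAA was found in 67.9% against 14.0%. A match describes the letters in this window and nothing about binding.

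The negative controls were then compared between the lines, with limma on log2 values where the mean over the 9 libraries reached 10, which 23 members did. Between MCF10AT1 and MCF10A, 3 members were higher and none lower. Between MCF10CA1h and MCF10A, 2 were higher and 6 lower, and between MCF10CA1h and MCF10AT1 none was higher and 8 were lower. At an unadjusted p under 0.05, limma gave none lower in the first comparison, where 23.2% of all genes were, and 1 higher in the last, where 18.4% were, and without the filter on low values there were 6 higher in the last. MCF10AT1 against MCF10A thus called 3 of 23 where 13.3% of all 15652 tested genes were higher and 14.7% lower; the member median was 0.30 on the log2 scale against -0.01 for all genes. For MCF10CA1h against MCF10A the member median was -0.44 against -0.06, with 19.0% of genes higher and 18.8% lower. For MCF10CA1h against MCF10AT1 the median was -0.87 against 0.05, with 11.0% of genes higher and 10.8% lower, beside 8 of 23 members lower. Both comparisons with MCF10A share its 3 libraries.

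H2BC21, a variant H2B gene with a long polyadenylated transcript, had normalized counts of 324, 481 and 354 in the MCF10A negative controls a, b and c, 392, 183 and 384 in MCF10AT1, and 55.6, 56.8 and 44.4 in MCF10CA1h. The MCF10CA1h libraries were all below the lowest library of the other lines, and the log2 difference was -2.85 (SE 0.33, adjusted p = 0.000397) from MCF10A and -2.52 (SE 0.33, adjusted p = 0.00109) from MCF10AT1. H4C9 stood at 252, 208 and 193 in MCF10A, at 481, 204 and 218 in MCF10AT1 and at 45.2, 50.7 and 40.02 in MCF10CA1h. It too was lowest in every MCF10CA1h library, by -2.24 (SE 0.35, adjusted p = 0.00142) and -2.60 (SE 0.35, adjusted p = 0.00111). H2AC6, another member with a polyadenylated transcript, was at 366, 492 and 476 in MCF10A, at 368, 120 and 404 in MCF10AT1 and at 108, 114 and 79.0 in MCF10CA1h. MCF10AT1 negative control b came close to the MCF10CA1h libraries; the difference of MCF10CA1h was -2.14 (SE 0.43, adjusted p = 0.00481) from MCF10A and -1.39 (SE 0.43, adjusted p = 0.0458) from MCF10AT1. H2BC12 was at 616, 533 and 609 in MCF10A, 859, 397 and 738 in MCF10AT1 and 287, 319 and 272 in MCF10CA1h, a fall of 1.00 (SE 0.28, adjusted p = 0.0211) and of 1.11 (SE 0.28, adjusted p = 0.0222). H2BC5 fell by 0.97 (SE 0.33, adjusted p = 0.041) and by 1.50 (SE 0.33, adjusted p = 0.0113). Of the 6 members listed for polyadenylated transcripts, 4 were thus called lower in MCF10CA1h than in each other line. Of all tested genes, 18.8% were lower against MCF10A and 10.8% against MCF10AT1. The call of H2AC6 against MCF10AT1 was lost in 13 of 20 alternative fits, and that of H2BC5 against MCF10A in 9 of 20. H1-2 had a log2 difference of 0.68 from MCF10A and did not pass.

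H2AC25, in the second cluster of chromosome 1 with H2BC26, marked MCF10AT1. It had 293, 206 and 245 normalized counts in the MCF10A negative controls, 980.0, 974 and 691 in those of MCF10AT1 and 204, 157 and 185 in those of MCF10CA1h, and every MCF10AT1 library was above all others. It was higher in MCF10AT1 than in MCF10A by 1.82 on the log2 scale (SE 0.24, adjusted p = 0.00145) and lower in MCF10CA1h than in MCF10AT1 by -2.26 (SE 0.24, adjusted p = 0.000377). In MCF10AT1 negative control b the second cluster of chromosome 1 held 35.4% of the histone sum. The other calls between MCF10AT1 and MCF10A were H2BC15 and H3C10. H2BC15 went from 23.0, 14.3 and 7.64 to 33.8, 37.5 and 62.9 (log2 difference 1.59, adjusted p = 0.0349), and H3C10 from 7.51, 16.4 and 10.3 to 40.1, 31.3 and 31.7 (1.57, adjusted p = 0.0242). H3C6 was lower in MCF10CA1h than in MCF10AT1 (64.7 to 17.8, -1.87, adjusted p = 0.0113). H2AC18 was called lower in MCF10CA1h than in MCF10A by -1.73 (adjusted p = 0.0116) and than in MCF10AT1 by -1.50 (adjusted p = 0.0333), but summed with H2AC19 the differences were -0.09 (adjusted p = 0.832) and -0.14 (adjusted p = 0.763), so those 2 calls rest on how reads were shared between the copies.

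**Figure D2:**
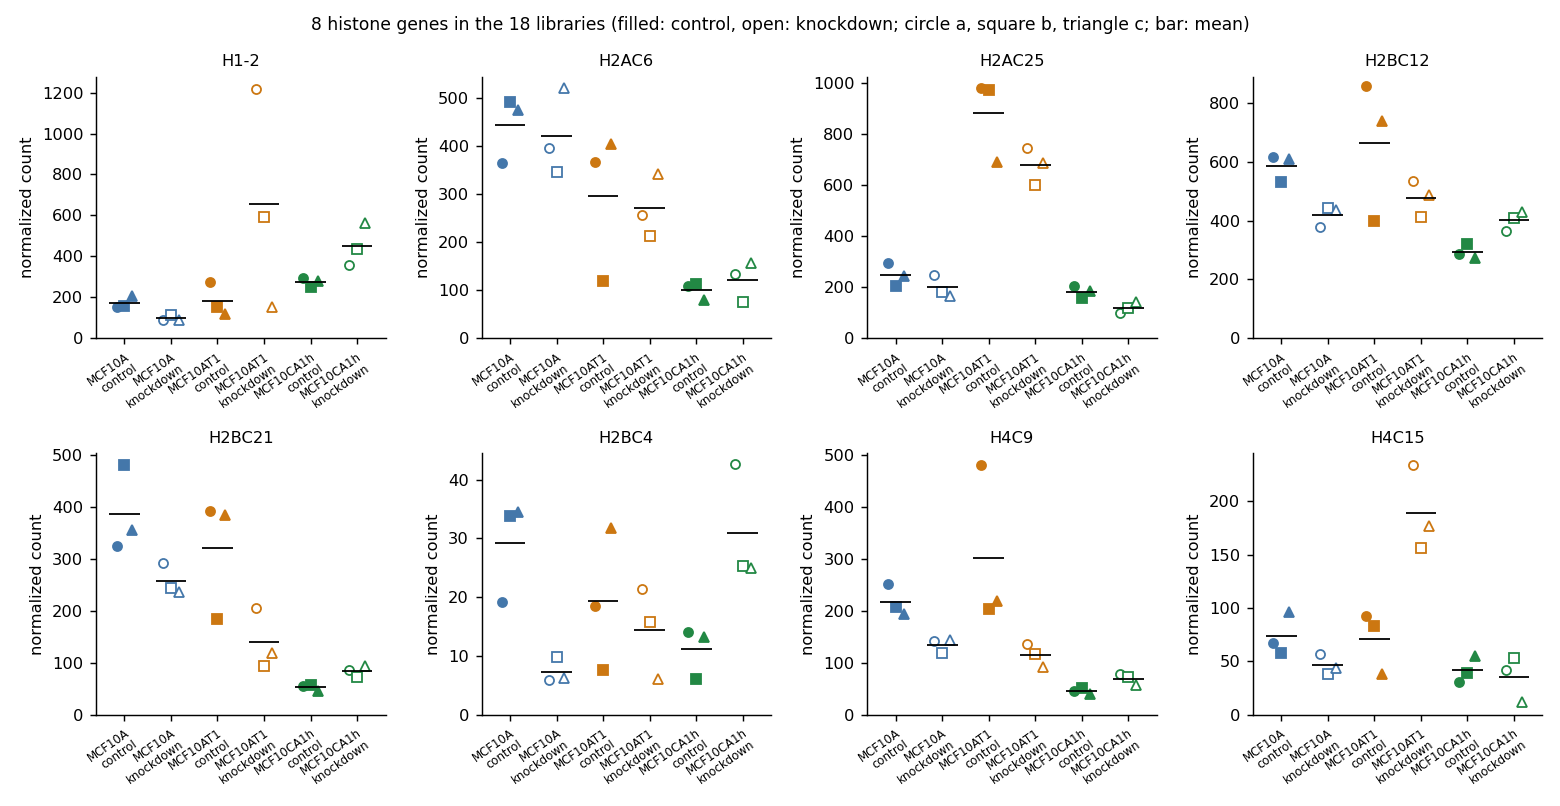
Normalized counts of 8 histone genes in each library, by line and arm (filled symbols negative control, open symbols labelled knockdown, symbol shape the replicate, bar the mean of 3). H2BC21, H4C9 and H2AC6 are lowest in MCF10CA1h, H2AC25 is highest in MCF10AT1, and H1-2 reaches 1219 in MCF10AT1 knockdown a.

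Leaving out MCF10CA1h negative control a left 3 lower members in place of 6 against MCF10A and 3 in place of 8 against MCF10AT1. Against MCF10AT1, 5 were left without its negative control a, or without MCF10CA1h negative control b or c, and H1-2 was then higher in MCF10CA1h only without MCF10AT1 negative control a. The 3 higher members of MCF10AT1 against MCF10A became 1 without MCF10A negative control c or MCF10AT1 negative control a.

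In MCF10CA1h the S phase genes were higher while most of the called histone genes were lower; in MCF10AT1 against MCF10A both had higher medians. All 41 S phase genes tested were higher in MCF10CA1h than in MCF10A (median 2.64 on the log2 scale), 16 were higher in MCF10AT1 than in MCF10A (median 1.05), and 23 were higher in MCF10CA1h than in MCF10AT1 (median 1.35), with none lower in any of the 3. In the same order, 19.0%, 13.3% and 11.0% of all tested genes were higher, and 18.8%, 14.7% and 10.8% lower. TK1, thymidine kinase, rose by 4.87, CDC45, a part of the replicative helicase, by 4.52, and GINS4, another helicase subunit, by 3.71 on the log2 scale between MCF10A and MCF10CA1h. The S phase sum was 12115 to 25691 in MCF10A, 27666 to 48332 in MCF10AT1 and 86659 to 89999 in MCF10CA1h. The histone sum was 2616 to 2838, 2774 to 4268 and 1558 to 1625 in the same libraries, so it made 10.2% to 23.4% of the S phase sum in MCF10A, 5.74% to 12.4% in MCF10AT1 and 1.78% to 1.85% in MCF10CA1h. In the negative controls MCF10CA1h thus had the highest S phase sum and the lowest histone sum, with no overlap in either. Most of the fall from MCF10A lay in the 6 members listed for polyadenylated transcripts, whose mean sum went from 1733 to 788. The mean sum of the other 54 members went from 971 to 808, a smaller fall. Their libraries did not overlap either (862 to 1047, then 798 to 825). For MCF10AT1 the means of these parts were 1647 and 1847. The share of cells in S phase and the amount of an RNA per cell cannot be told apart in bulk RNA.

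The low members differed between the lines in the direction of the S phase genes. The 37 members with a mean below 10 over the 18 libraries summed to 37.2, 60.9 and 50.1 in the MCF10A negative controls, to 81.8, 53.8 and 99.8 in MCF10AT1, and to 148, 173 and 129 in MCF10CA1h. Every MCF10CA1h library was above every other negative control. Single members were higher in all MCF10CA1h than in all MCF10A libraries in 13 of 37 cases and lower in none, where of 20036 genes with a mean below 10 the share was 5.1% higher and 9.61% lower. Against MCF10AT1 the counts were 9 higher and 1 lower, with shares of 4.86% and 4.27%. Without the filter on low values, 10 members were called higher and 5 lower between MCF10CA1h and MCF10A, with 8.5% of 34545 genes higher and 8.44% lower, and 6 higher and 6 lower between MCF10CA1h and MCF10AT1, with 4.81% and 4.2%. Of these, 9 and 6 higher calls were low members, and no low member was called lower. Examples between MCF10CA1h and MCF10A were H3C2 (log2 difference 2.48, SE 0.39, adjusted p = 0.00158), H2AC14 (2.29, SE 0.46, adjusted p = 0.00605), H2AC12 (2.34, SE 0.50, adjusted p = 0.0085) and H1-1 (2.08, SE 0.49, adjusted p = 0.0138). From MCF10AT1, H3C2 and H1-1 had the same differences of 2.48 and 2.08, as their mean log2 values in MCF10AT1 and MCF10A were equal. Both comparisons share the MCF10CA1h libraries, so the second adds no separate observation. H2BC12 and H2AC12, which share the region shown above, thus differed in opposite directions, although H2AC12 had a mean of only 1.47 over the 18 libraries. The low members named here were chosen after their values were seen. They have a few normalized counts at most per library, H3C2 no more than 6.11. Their differences on the log2 scale are compressed and depend on the pseudocount of 1, so neither size nor adjusted p is firm.

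**Figure D3:**
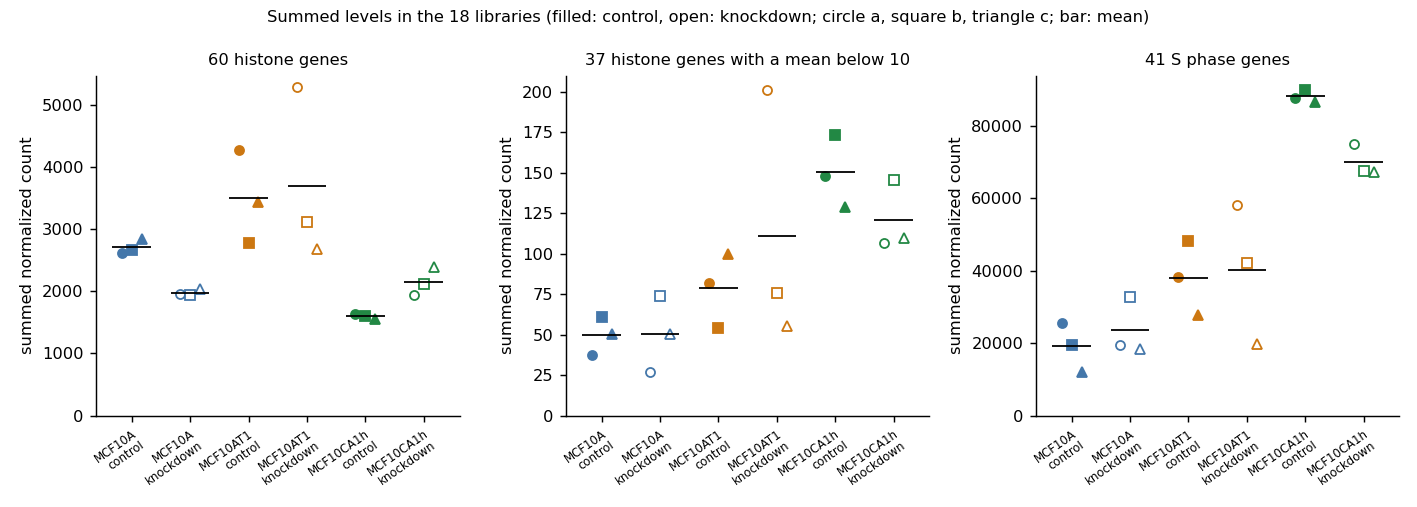
Summed normalized counts per library of the 60 histone genes, of the 37 with a mean below 10, and of 41 S phase genes, by line and arm (filled negative control, open labelled knockdown, bar the mean of 3). In the negative controls the MCF10CA1h libraries are lowest for the whole histone sum (1558 to 1625) and highest for the low members (129 to 173) and for S phase (86659 to 89999).

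Among single low-to-middle members that passed the filter, H4C12 was at 6.49, 10.8 and 6.60 in MCF10A and at 35.2, 29.0 and 47.0 in MCF10CA1h, a log2 difference of 2.09 (SE 0.44, adjusted p = 0.00563). H2BC9 was at 4.70, 9.03 and 3.73 and at 25.3, 11.5 and 31.1 in the same groups, a difference of 1.76 (SE 0.56, adjusted p = 0.0331). These were the 2 members called higher there, both with the stem-loop end only, and H2BC9 lost its call without any of 4 libraries, MCF10A negative controls a and c and MCF10CA1h negative controls a and c, when 1 higher member was left.

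Genes around the histones also differed between the lines. Between MCF10CA1h and MCF10A, 19.0% of all tested genes were higher and 18.8% lower, beside the counts that follow. Of 11 tested replacement histones, 8 were higher in MCF10CA1h than in MCF10A and none lower, among them CENPA, the centromeric H3 (log2 difference 4.56, adjusted p = 0.0046), H2AX, which is phosphorylated at DNA breaks (3.71, adjusted p = 0.00028), and H2AZ1 (1.84, adjusted p = 0.00086). Of 26 histone chaperones, 15 were higher and 1 lower, led by ASF1B (4.44) and HJURP (4.09), which deliver H3 with H4 and CENPA, and CHAF1A of the replication-coupled CAF-1 complex (3.20). Of 28 genes of histone transcription and mRNA processing, 12 were higher and 2 lower. SLBP was higher in MCF10CA1h than in MCF10A (0.66, SE 0.17, adjusted p = 0.0134) and than in MCF10AT1 (0.85, SE 0.17, adjusted p = 0.00718). NPAT, the activator of histone transcription, did not pass between MCF10CA1h and MCF10A (-0.84, SE 0.36, adjusted p = 0.0914), while its partner CASP8AP2 was lower in MCF10AT1 (-1.91, SE 0.55, adjusted p = 0.0308) and in MCF10CA1h (-1.84, SE 0.55, adjusted p = 0.0256) than in MCF10A. CPSF3, the nuclease of the 3′ cut, was lower in MCF10CA1h than in MCF10AT1 (-1.31, adjusted p = 0.017). Of 8 tested RNAs without a polyA tail, 6 were higher in MCF10CA1h than in MCF10A and none lower, RN7SK by 2.74 and RMRP by 2.99 on the log2 scale; the content of such RNAs in a library therefore moved with the line, and its part in the histone differences was not tested.

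**Figure D4:**
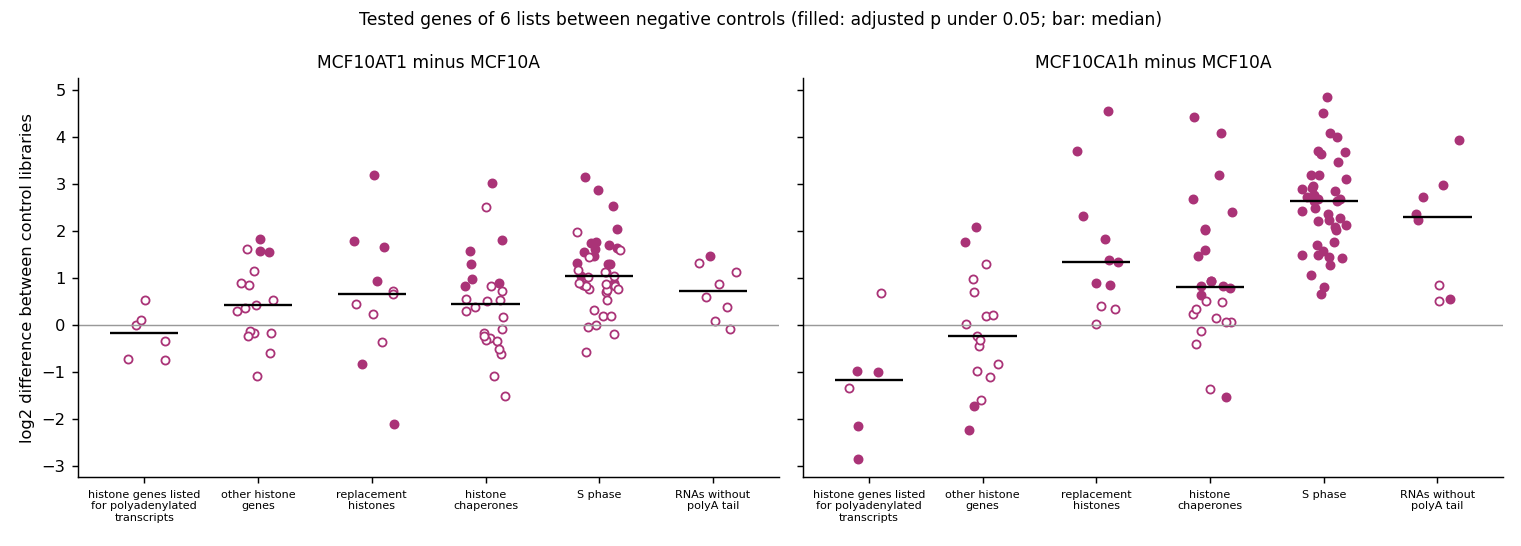
Log2 differences between negative controls of the tested genes of 6 lists, MCF10AT1 minus MCF10A and MCF10CA1h minus MCF10A (filled, adjusted p under 0.05; bar, median). In MCF10CA1h the median is -1.17 for the members listed for polyadenylated transcripts, -0.23 for the other histone genes and 2.64 for the S phase genes.

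The knockdown libraries were compared with the negative control of the same line, which compares 1 clone with another in each line. With limma and no block for the replicate letter, none of 21 tested members passed in MCF10A, none of 24 in MCF10AT1, and 3 of 24 were higher and none lower in MCF10CA1h. The MCF10AT1 result depends on that choice, and the calls with the block are given below. The background was 1.16% of 15416 genes higher and 1.49% lower in MCF10A, 7.07% of 16050 higher and 5.96% lower in MCF10AT1, and 7.91% of 15127 higher and 4.85% lower in MCF10CA1h. The member medians on the log2 scale were -0.57, -0.12 and 0.40, against 0.00, 0.02 and -0.02 for all tested genes.

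In MCF10A the histone sum was 2616, 2657 and 2838 in the negative controls and 1948, 1936 and 2040 in the libraries labelled knockdown, and the groups did not overlap. Of the 21 tested members, 18 had a negative and 3 a positive log2 difference, and at an unadjusted p under 0.05 there were 8 lower and none higher, where 10.5% and 7.91% of all genes were. In 9 members every library labelled knockdown was below every negative control, and in 1, H4C12, above, where 13.4% and 10.5% of all genes did so. Of the 6 members listed for polyadenylated transcripts, all had a negative difference and 5 did not overlap. H1-2 went from 152, 155 and 207 to 89.8, 114 and 90.3 (-0.79, SE 0.25, adjusted p = 0.143). H2BC4 went from 19.2, 33.8 and 34.5 to 5.91, 9.74 and 6.30 (-1.84, SE 0.45, adjusted p = 0.0768), the smallest adjusted p of a member; it was the 1 member to pass when MCF10A negative control a was left out. H4C9 went from 252, 208 and 193 to 141, 118 and 143 (-0.69, SE 0.22, adjusted p = 0.15). None of 41 S phase genes passed in MCF10A, and at an unadjusted p under 0.05 none did so either; 37 of them had a positive difference, with a median of 0.42.

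In MCF10AT1 the replicates were far apart. The histone sum was 4268, 2774 and 3440 in the negative controls and 5276, 3111 and 2685 in the libraries labelled knockdown. Of the 23 members with a mean of at least 10, 20 were highest in knockdown a among the 3 libraries of that group, and its S phase sum was also the highest (58305, with 42075 in b and 19901 in c). H1-2 stood at 273, 155 and 117 in the negative controls and at 1219, 592 and 154 in the libraries labelled knockdown, a log2 difference of 1.49 (SE 0.71, adjusted p = 0.219), and without knockdown c it passed as the 1 member higher. The sum of H2AC18 and H2AC19 was 208, 137 and 146, and 922, 428 and 193. H4C9 went from 481, 204 and 218 to 135, 117 and 91.5 (-1.29, SE 0.43, adjusted p = 0.0889), without overlap. H2BC21 went from 392, 183 and 384 to 205, 94.1 and 119 (-1.19, SE 0.45, adjusted p = 0.131). H4C15 went from 92.0, 83.1 and 38.0 to 234, 156 and 177 (1.48, SE 0.45, adjusted p = 0.0701); summed with its copy H4C14 the difference was 0.95 (SE 0.37, adjusted p = 0.137). At an unadjusted p under 0.05 there were 2 higher and 2 lower members, where 14.5% and 13.0% of all genes were. Every library was higher in 2 members and lower in 1, where 17.3% and 15.6% of all genes did so. The same-letter deviations of this line correlated at 0.11, 0.289 and 0.477 for a, b and c. Between negative controls of different lines the range was -0.268 to 0.284, so a pairing by letter is uncertain. With the letter as a block in limma, 3 members were higher: H1-2 (adjusted p = 0.0147), H4C15 (0.0253) and H2AC19 (0.0361). With that block 2 were lower, H4C9 (0.0252) and H2BC21 (0.0294). With the block and the copies summed, H2AC18 with H2AC19 passed (1.39, SE 0.38, adjusted p = 0.0197) and H4C14 with H4C15 did not (0.95, SE 0.38, adjusted p = 0.0861); without the block the sum of H2AC18 and H2AC19 had an adjusted p of 0.143. The loss of epithelial markers given above moves with this comparison, and its part was not tested.

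In MCF10CA1h the histone sum was 1625, 1604 and 1558 in the negative controls and 1943, 2114 and 2394 in the libraries labelled knockdown, again without overlap and in the opposite direction to MCF10A. H4C8 was at 19.1, 18.7 and 18.7 and at 52.8, 45.8 and 36.8, a log2 difference of 1.20 (SE 0.31, adjusted p = 0.0284). H1-2 was at 294, 248 and 278 and at 359, 436 and 561, a difference of 0.70 (SE 0.18, adjusted p = 0.0271). H2AC18 was at 21.4, 36.1 and 41.7 and at 110.0, 208 and 61.2, a difference of 1.78 (SE 0.43, adjusted p = 0.0224); summed with H2AC19 it was 1.02 (SE 0.18, adjusted p = 0.00582). In all 3 genes every library labelled knockdown was above every negative control. Of the 24 members, 19 had a positive difference, and at an unadjusted p under 0.05 there were 9 higher and 1 lower, where 15.2% and 12.8% of all genes were. In 9 members every library was higher and in 1 lower, where 17.4% and 15.3% of all genes did so. Those below the threshold included H2BC4 (14.1, 6.08 and 13.2 to 42.6, 25.3 and 24.9; 1.43, adjusted p = 0.0613), H2BC12 (0.45, adjusted p = 0.0603) and H2BC21 (0.67, adjusted p = 0.0947), and all 6 members listed for polyadenylated transcripts had a positive difference. H2AC25 was the member with every library lower, at 204, 157 and 185 and at 97.4, 117 and 143 (-0.61, SE 0.20, adjusted p = 0.0771). The number of higher members was 0 without MCF10CA1h negative control a or knockdown b, 1 without negative control c, and 0 in the joint fit of all libraries.

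**Figure D5:**
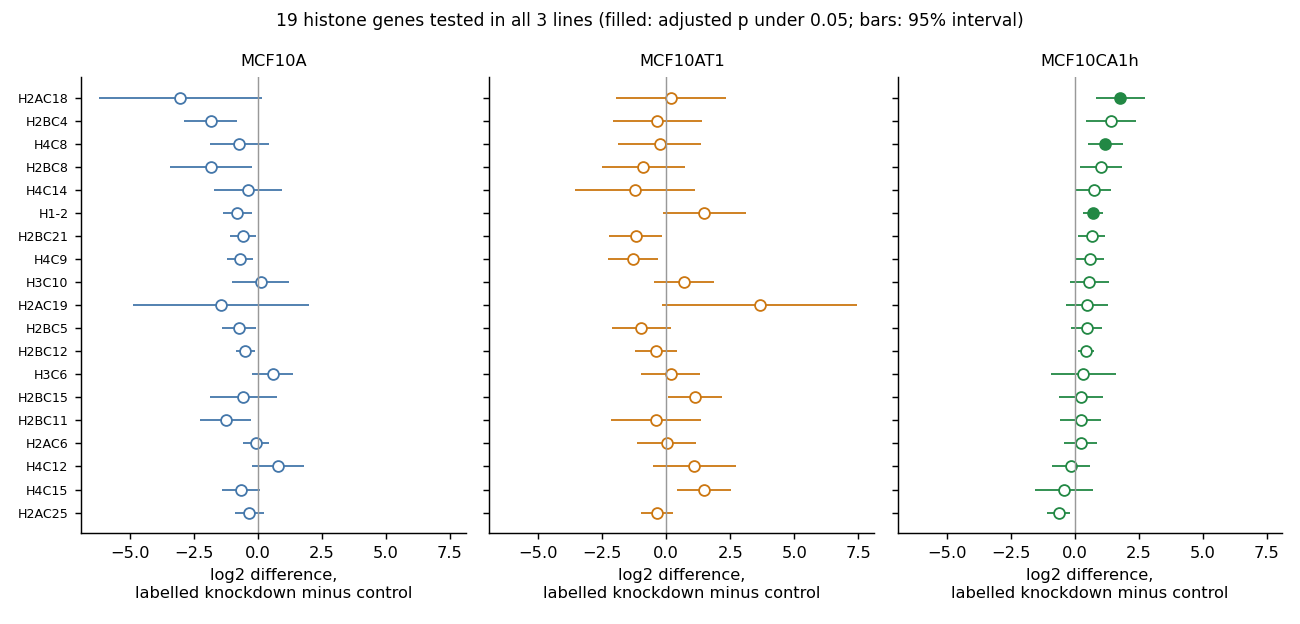
Log2 difference between libraries labelled knockdown and negative controls, with its 95% interval, for the 19 histone genes tested in all 3 lines, ordered by the value in MCF10CA1h (filled, adjusted p under 0.05). The 3 filled points are H2AC18, H4C8 and H1-2 in MCF10CA1h; the points lie mostly left of 0 in MCF10A.

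In MCF10CA1h the S phase genes and the histone genes again moved apart. Of all genes tested in this comparison, 4.85% were lower and 7.91% higher. Of 41 S phase genes 11 were lower in the libraries labelled knockdown and none higher, and all 41 had a negative difference (median -0.35); MCM10, a replication initiation factor, fell by 0.76 (SE 0.14, adjusted p = 0.0073). The low histone members summed to 148, 173 and 129 in the negative controls and to 106, 145 and 110.0 in the libraries labelled knockdown, which overlap. Of 26 chaperones 8 were lower, including SET (-0.66), the MCM2 helicase subunit (-0.52) and NASP, a carrier of H3 with H4 (-0.51). Of 28 genes of histone transcription and processing 3 were lower: E2F2 (-1.08), E2F1 (-0.42) and NCBP1 of the cap-binding complex (-0.38). SLBP did not pass in any line (-0.18 in MCF10A, 0.17 in MCF10AT1 and -0.18 in MCF10CA1h). Of 9 tested RNAs without a polyA tail, 4 were lower, RPPH1 of RNase P by -2.90, RMRP by -2.21, RN7SK by -1.20 and RN7SL1 by -0.53. Of the replacement histones 1 passed in MCF10CA1h, H2AX (-0.40, adjusted p = 0.02). MACROH2A2, a histone of silent chromatin, went from 177 to 17.1 in MCF10A (-3.37, adjusted p = 0.008) and from 44.3 to 703 in MCF10AT1 (4.11, adjusted p = 0.00069).

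Whether the effect of the labelled knockdown differed between lines was tested by interaction contrasts over 23 members. Against MCF10A, the effect was more positive in MCF10AT1 for H1-2 and H4C15 (1.40, adjusted p = 0.023, with H4C14 summed), where 11.2% of 15897 genes passed in that direction, and in MCF10CA1h for H2BC4, where 3.65% did. Against MCF10AT1 it was more positive in MCF10CA1h for H2BC21 and H4C9, where 9.67% did. The sum of H2AC18 and H2AC19, chosen after seeing the data, passed between MCF10AT1 and MCF10A (2.31, SE 0.59, adjusted p = 0.00958). Neither copy passed there alone, and the sum did not pass in the other contrasts. No member passed in the negative direction in the 3 contrasts by limma, and at an unadjusted p under 0.05 there were none, none and 1, where 16.5%, 7.13% and 14.7% of all genes were. The difference for H4C9 was 1.87 (95% interval 0.97 to 2.77), and for H2BC21 1.86 (0.89 to 2.82), both genes going down in MCF10AT1 and up in MCF10CA1h on average; alone they did not pass in MCF10CA1h, and in MCF10AT1 they passed only with the block or in the joint fit.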

How the data were processed

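The deposited table holds normalized counts, which is a signal already scaled between libraries by the authors: per the labels and the methods text, paired-end reads were pseudo-aligned to the hg38 transcriptome with Kallisto 0.46.1, summed to genes with tximport, and normalized with DESeq2 1.26.0 in R 4.1.1 (the annotation release is not given in the sources used here). The library kit named is for rRNA-depleted total RNA, whereas a heading and the labels name polyA RNA. Read depth per gene is unknown, so no counting interval is given, and DESeq2 or other count models were not run here. All 18 columns matched a sample, 24646 rows without values were left out, and no library was left out.

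Differences were computed in R 4.3.3 with limma 3.58.1 (intensity trend) on log2 values with a pseudocount of 1, after genes whose mean fell below 10 in the libraries fitted were set aside. Each line was fitted alone, the 9 negative controls in a fit of their own, and the differences between lines in a fit of all libraries. P-values are two-sided, adjusted by Benjamini-Hochberg over all tested genes with a threshold of 0.05, and measure the spread within clones. The code was tested on simulated data. Lengths, ends and coordinates come from GENCODE 44 (hg38), and other values from Python 3.11.15 with pandas 2.3.3.

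Replicate letters come from the sample titles. The correlations of same-letter deviations were 0.221, 0.2 and 0.116 in MCF10A and 0.11, 0.289 and 0.477 in MCF10AT1. In MCF10CA1h they were -0.0112, 0.0173 and 0.046. The main fits did not use the letters in any line, so any pairing in MCF10A and MCF10AT1 enters only through the replicate block, an alternative fit. The members, gene lists and tests were chosen with earlier results of these data known. Named genes are the 3 highest members of each family, up to 5 members per comparison and direction past the threshold, the members listed for polyadenylated transcripts, members with an interaction past the threshold, and of the other lists those with the largest changes; low members named without the filter were chosen after their values were seen. Alternatives were other pseudocounts, filters and scalings, no intensity trend, a joint fit, the replicate block, each library left out, and, chosen after seeing the data, near-identical copies summed, alone and with the block. Some results of the S phase and replacement histone lists are not reported here.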

Additional observations from a re-analysis of the deposited data

Results flagged for a closer look

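For 5 histone genes taken singly, the difference between the libraries labelled knockdown and the negative controls was itself different between 2 lines. The test was an interaction contrast in limma with Benjamini-Hochberg adjustment over all genes. Between MCF10AT1 and MCF10A the log2 values were 2.28 (SE 0.72, adjusted p = 0.0319) for H1-2 and 2.13 (SE 0.67, adjusted p = 0.031) for H4C15. For H1-2, MCF10AT1 knockdown a stood at 1219 and knockdown c at 154, and under the alternatives the adjusted p reached 0.0757. For H4C15 the adjusted p reached 0.0762, and with its copy H4C14 summed the value was 1.40 (adjusted p = 0.023). The sum of H2AC18 and H2AC19, not among the 5, had a value of 2.31 (SE 0.59, adjusted p = 0.00958) between the same lines. Between MCF10CA1h and MCF10A the value for H2BC4 was 3.27 (SE 0.78, adjusted p = 0.0206), with an adjusted p of 0.0617 at the highest. Between MCF10CA1h and MCF10AT1 the values were 1.86 (SE 0.45, adjusted p = 0.00867) for H2BC21 and 1.87 (SE 0.43, adjusted p = 0.00532) for H4C9, and both passed under all 28 alternatives run for them.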

How the results depend on the processing

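Each log2 difference of a called member kept its direction under every alternative run for it, but many calls were lost. Of 562 log2 differences under an alternative, 455 kept direction and threshold and 107 lost the threshold. Among the most fragile calls, H2AC6 in MCF10CA1h against MCF10AT1 was lost in 13 of 20 alternatives. H2BC15 in MCF10AT1 against MCF10A was lost in 12 of 19. Counts of called members that moved by more than 1.5 times are given as higher or lower members. Without the intensity trend 1 member was lower in the MCF10A knockdown and 1 higher in MCF10CA1h against MCF10AT1, where a pseudocount of 5 also gave 1. In the joint fit 2 were higher and 2 lower in the MCF10AT1 knockdown and 0 higher in MCF10CA1h. Without a filter 1 was higher in MCF10AT1 against MCF10A, 10 in MCF10CA1h against MCF10A and 6 in MCF10CA1h against MCF10AT1; with a mean of at least 50 the first 2 were 1 and 0. With the replicate block 3 members were higher and 2 lower in the MCF10AT1 knockdown and 1 was higher in MCF10CA1h against MCF10A, and with the copies summed as well, chosen after seeing the data, these were 2, 2 and 1. Between negative controls of different lines the same-letter correlations ran from -0.268 to 0.284, and the block moved no other count past 1.5 times. Leaving out each library in turn gave 0 to 1 lower members in the MCF10A knockdown, 0 to 1 higher in MCF10AT1 and 0 to 2 higher in MCF10CA1h, 1 to 3 higher in MCF10AT1 against MCF10A, 1 to 3 higher and 3 to 7 lower in MCF10CA1h against MCF10A, and 0 to 1 higher and 3 to 8 lower in MCF10CA1h against MCF10AT1. In these fits fewer samples enter; other causes were not tested.

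With all libraries set to equal sums the mean histone sum was 2865 in place of 2704 in MCF10A negative controls, 2226 in place of 1975 in MCF10A knockdowns and 1666 in place of 1596 in MCF10CA1h negative controls. Without the 6 members listed for polyadenylated transcripts it was 970.8, 702.4, 1847, 2040.0, 807.6 and 981.1 in the negative control and knockdown of MCF10A, MCF10AT1 and MCF10CA1h. Most members have a few normalized counts, so that small differences in 37 of the 60 were not detectable here.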
